A study of Arabidopsis thaliana with 26 samples.

Results

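The 4C libraries described here were made from the AGAMOUS (AG) viewpoint of Arabidopsis thaliana Col-0, in 2 replicates, A and B, out of 26 libraries with 13 viewpoints in all. They were chosen by their label, AG, and no measured value entered the choice. All 26 libraries came from the aerial tissue of untreated wild-type seedlings, 14 days old and raised on MS medium in long days. The libraries differ by viewpoint but also in preparation. PHE1, FIS2, CKI1, FWA and FLC share with AG the second enzyme, DpnII, and primers that carried the sequencing adapter. The other 7 viewpoints are listed with NlaIV as second enzyme, and 5 of them had adapters ligated later, so that ranks over all 13 viewpoints mix these preparations. In 4C, crosslinked chromatin is cut and religated, and whatever DNA was joined to the chosen fragment (the viewpoint) is amplified and sequenced, so that read counts per restriction fragment reflect how often it lay near the viewpoint. PCR products of individual replicates were pooled before sequencing, and such reads carry no molecular identifiers. The aerial tissue mixes many cell types, so that a contact in a few cells and a weak contact in many cells cannot be told apart.

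AG encodes a MADS-domain transcription factor that specifies stamens and carpels and ends the growth of the floral meristem. In leaves and seedlings the gene is kept silent by Polycomb repressive complex 2, which trimethylates lysine 27 of histone H3 (H3K27me3) over the locus, and part of its regulation lies in a large intron. Its closest relatives, SHATTERPROOF1 and 2 (SHP1, SHP2) and SEEDSTICK (STK), act in carpels, fruits and ovules and are Polycomb targets too. Whether such loci meet each other or other H3K27me3 regions in the nucleus is a question that a viewpoint inside AG addresses.

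The viewpoint lies within the gene (AT4G18960, chr4:10382856-10388539, plus strand, TAIR10), in an exon at chr4:10383912-10384146. It sits 6.42 Mb from the centromere on the right arm of chromosome 4, at 0.439 of the length of that arm. The reading primer ends directly at a HindIII site, the first enzyme used to cut the chromatin, and the second primer ends at a DpnII site, the second enzyme. The sequences are shown because SHP2 and AGL104, another MADS-box gene, carry near copies of both. Here capitals mark the HindIII and DpnII sites, and both sequences read toward the site.
Reading primer at AG, chr4:10384034-10384061, plus strand: cgtagaaatggtttgctcaagaAAGCTT
Second primer at AG, chr4:10383994-10384016, minus strand: gacgattcgttgtgttctcGATC

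At 6 other places in the genome a HindIII site directly followed a sequence within 4 mismatches of the reading primer. All of them lay in MADS-box genes, namely SHP2, SEP1, SEP2, AGL6, AGL42 and AGL104. In the following, capitals mark bases that differ from the AG primer, with positions counted from 1 at the 5′ end.
SHP2, reading primer, chr2:17820716-17820737, plus strand: cgACgCaatggtttActcaaga
SHP2, second primer, chr2:17820679-17820698, minus strand: gacgattcgtAgtgttctcT
SEP2, reading primer, chr3:466597-466618, minus strand: cgtagaaatggtttgctGaaAa
AGL104, reading primer, chr1:7814169-7814190, minus strand: cgtagaaatggtttgAtTaaga
AGL104, second primer, chr1:7814208-7814227, plus strand: gTcgattcgttgtgttctcT

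The SHP2 site differed from the reading primer by T3A, A4C, A6C and G15A, and from the second primer by T11A and G20T, the latter of which falls on the DpnII site. The 2 fragments that meet at the SHP2 HindIII site held 41543 reads in AG replicate A and 50199 in replicate B, against at most 134 in any library of another viewpoint. SEP2, with the changes C18G and G21A, held 19 and 24 reads, and AGL104, with C16A and C18T in the reading primer and A2T and G20T in the second, held 11 and 4. The medians over the other libraries there were 20 and 30. In the reading primer, the mismatches of SHP2 lie at positions 3 to 15. Those of SEP2 and AGL104 lie at positions 16 to 21, nearer the 3′ end. Whether number or position of mismatches bears on the reads was not tested. Because of the reads at SHP2, a stretch of 23 fragments around that gene (chr2:17796880-17844686) was left out before scaling. It held 8.5% and 9.98% of the otherwise kept reads in the AG replicates, and 0.00915% to 0.210% in the libraries of the other 12 viewpoints.

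Beyond that stretch the right arm of chromosome 2 still stood apart. Values are RPM, reads scaled to the kept reads of each library, averaged per fragment. At 20 to 40 kb from SHP2 the AG replicates had 63.5 and 63.1 RPM per fragment, while PHE1, FWA and FLC, the comparison viewpoints prepared like AG that lie off chromosome 2, had 7.19 to 10.9. At 60 to 100 kb the AG replicates had 29.3 and 33.3 against 6.41 to 11.8, at 100 to 200 kb 18.0 and 19.7 against 8.58 to 12.3, at 200 to 400 kb 18.1 and 17.4 against 8.95 to 13.0, and at 1600 to 3200 kb 9.80 and 11.4 against 7.69 to 10.2. Both AG replicates thus fell with distance from SHP2 up to 100 to 200 kb, and both lay above the comparison viewpoints out to 1600 kb. Whether the primer-like sequence or a contact between both genes gave these reads was not tested. The main results on other chromosomes are therefore also given without the right arm of chromosome 2. Leaving out that arm takes away no reads on the remaining chromosomes, so any there that came by way of SHP2 would stay. Whether there were such reads was not tested.

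**Figure D1:**
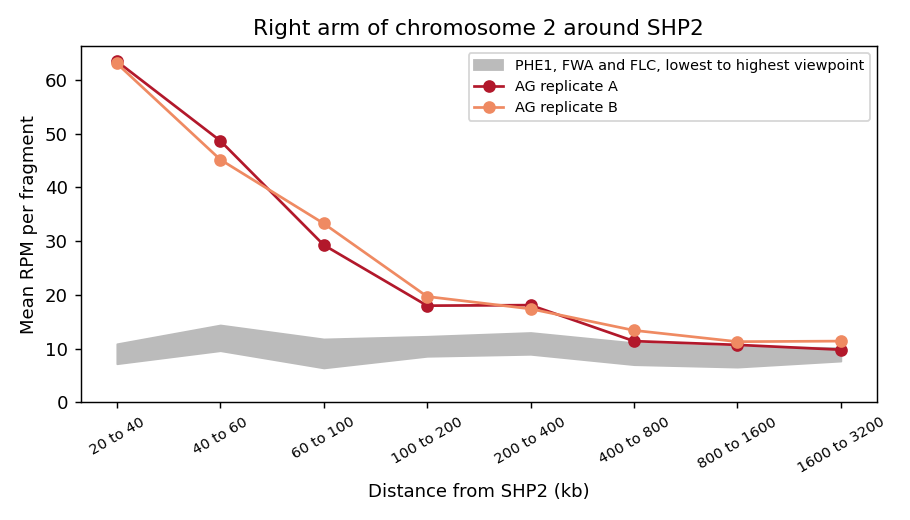
Mean RPM per fragment on chromosome 2 (y axis) in intervals of distance from SHP2 (x axis, kb), for AG replicates A and B (lines) and the span of the means of the PHE1, FWA and FLC viewpoints (grey band). The AG replicates start at 63.5 and 63.1 and reach 11.4 and 13.4 at 400 to 800 kb, where the band ends at 11.1.

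AG replicate A had 1576701 reads at HindIII ends and replicate B 1561293, of which 37.7% and 37.6% were kept (593634 and 587424 reads over 65038 fragments). The 3 viewpoint fragments took 57.3% and 56.8% of the reads and were left out, together with fragments within 1 kb of them or 100 kb of a centromere. Of the kept fragments, 59.4% and 60.1% had reads. The other 24 libraries had 273410 to 3560282 kept reads.

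Around the gene, contacts were dense in both replicates. All 45 kept fragments within 30 kb had reads, from 87.6 to 32148 RPM in replicate A and from 93.6 to 29311 in replicate B. The fragment next to the viewpoint on the centromere side (chr4:10377644-10378459, in AT4G18950) was the highest with 32148 and 29311 RPM. The first fragment past the viewpoint on the telomere side (chr4:10388987-10389729, in AT4G18970) had 2530 and 2748. It lay farther away, at 4.92 kb instead of 2.44 kb. The libraries of FWA, an imprinted homeobox gene 2.66 Mb away on the same arm, gave at most 165 and 168 RPM on any of these 45 fragments.

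H3K27me3 is given as the percentage of a fragment's bases covered by reads of published chromatin immunoprecipitation data. The 3 viewpoint fragments had a mean of 30.9% against 10.8% over all kept fragments, and the 2 that carry AG sequence had 35.5% and 44.4%. The centromere side within 30 kb had more of the mark (mean 16.3% over 28 fragments against 8.64% over 17). Its mean signal was 2948 and 2637 RPM against 1930 and 1857, but that mean includes the highest fragment, with 32148 and 29311. At 10 to 30 kb the centromere side had the lower signal, with 1037 and 1078 RPM over 18 fragments against 1689 and 1526 over 15. Single fragments varied. The highest neighbour had 2.94% H3K27me3. A fragment in XTH29, a cell wall xyloglucan enzyme gene, had 52.6% at 17.5 kb and gave 97.7 and 93.6 RPM, near the bottom of the range. A fragment at BEH3 and AT4G18900 on the other side had 52.2% at 22.6 kb and gave 1813 and 2257 RPM. Both fragments are rich in H3K27me3 but differed in signal, and neither lay near the top of the local range. In the FWA libraries the XTH29 fragment was also the lower of them, with 0.725 and 0.881 RPM against 84.5 and 55.5.

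**Figure D2:**
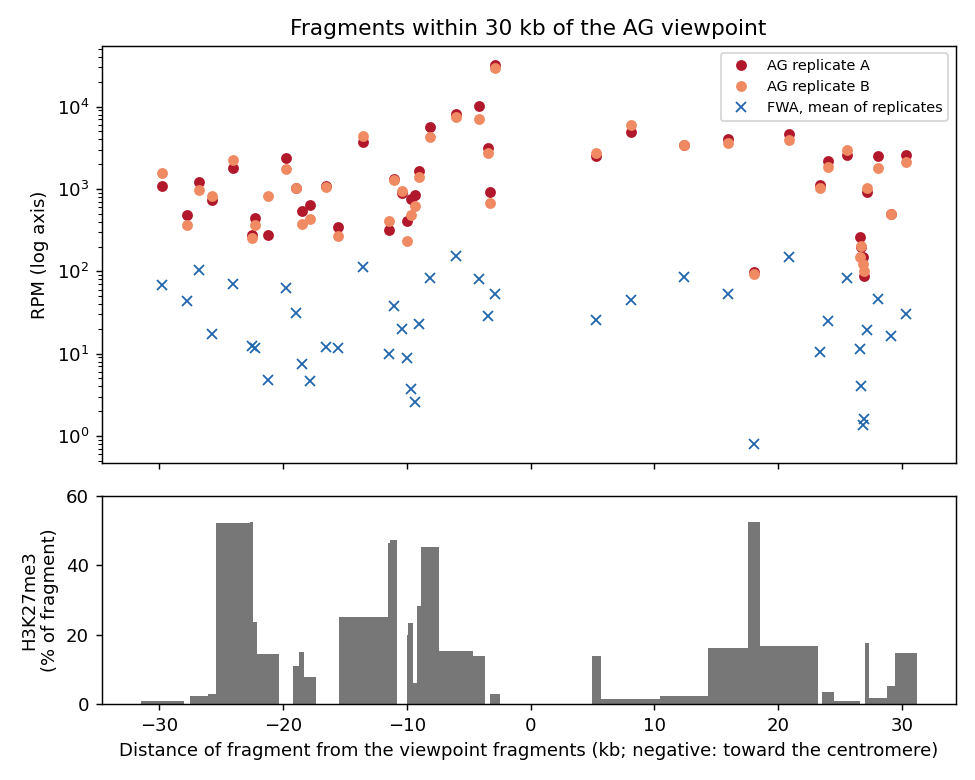
RPM of each kept fragment (upper panel, log axis) and its H3K27me3 coverage (lower panel, percent of the fragment) against distance from the viewpoint fragments (kb), for AG replicates A and B (circles) and the mean of the FWA replicates (crosses). AG values run from 87.6 to 32148 RPM and the FWA values on the same fragments stay at or below 168.

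With distance along the arm the signal fell in both replicates. Mean values per fragment were 1334 and 1282 RPM at 10 to 30 kb (33 fragments), 615 and 605 at 30 to 100 kb, 220 and 215 at 100 to 300 kb, 95.5 and 99.1 at 300 kb to 1 Mb, 56.5 and 56.4 at 1 to 3 Mb, and 36 and 35.4 at 3 to 10 Mb. At 10 to 30 kb, 300 kb to 1 Mb and 1 to 3 Mb, 10 of the other 12 viewpoints had higher means on their own arms, and at 100 to 300 kb 5 had. Each replicate differed from the other by less than these intervals differed from each other.

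The decline was described by the slope of log10 mean RPM per fragment on log10 distance from 1 kb to 10 Mb. It was -0.74 and -0.72 for the AG replicates and -0.73 and -0.70 for FWA, within a range of -0.80 to -0.54 over the other 12 viewpoints. The spread between replicates, pooled over the 13 viewpoints, was 0.02 (SD). AG thus lay inside the range, 6th from its shallow end (one-sided exact permutation p = 0.462). With 13 viewpoints such a rank cannot give a p below 0.0769, which also holds for the other 5 values that follow, and after Benjamini-Hochberg adjustment over all 6 values every p was 0.538. For each value the side tested was the one on which AG lay from the median of the other viewpoints, so it was taken from the data. The viewpoints MEA F6 and MEA F8 lie at the same locus but were counted separately. Among the 5 viewpoints prepared like AG the slope ranged from -0.80 to -0.54.

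The sides of the viewpoint differed. At 30 to 100 kb the telomere side had 854 and 796 RPM per fragment (38 fragments) and the centromere side 434 and 460 (50 fragments). Per kb of sequence these were 451 and 420 against 313 and 331, so that the longer fragments of the telomere side (median 1190 bp against 906) did not take up the whole gap. At 300 kb to 1 Mb the values were 103 and 105 against 87.4 and 92.9. At 1 to 10 kb the centromere side was higher, with 6387 and 5443 over 10 fragments against 3740 and 4338 over 2. Beyond 3 Mb it was again higher per fragment, with 38.6 and 36.9 against 34.4 and 34.5, but per kb it had 19.7 and 18.9 against 18.9 and 18.9, so that replicate B showed no difference.

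Farther out, 270 windows of 25 fragments lay more than 1 Mb from the viewpoint, with 12.3 to 93.8 RPM per fragment (median 41.2, mean of both replicates). The 5 highest lay within 1.69 Mb. The first (chr4:9307268-9361621, 1.05 Mb toward the centromere) had 90.1 and 97.5 RPM per fragment and 52.5 and 53.3 in the FWA libraries. It contains 17 annotated genes, among them ATG8F, an autophagy gene, and the arginine methyltransferase gene PRMT7, and has 14.7% H3K27me3. The second (chr4:9225232-9271039) had 88.9 and 92.9 and contains ADA2B, a gene for a histone acetylation coactivator. The other 3, at 1.40, 1.69 and 1.06 Mb toward the telomere, had 84.6 and 82.1, 83.1 and 81.8, and 87.2 and 73.9. Their H3K27me3 was 8.95%, 12.2% and 5.28%, and that of the second 8.72%. The first and the fourth were thus above the mean of 11.6% over fragments of the arm, and the other 3 below it.

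STK, the only close AG relative on this arm, lies 4.14 Mb toward the centromere. Its window had 56.5 and 56.2 RPM per fragment. The 36 windows on the same side at about that distance averaged 46.2 and 44.7, with a range of 28.7 to 79.7, and 6 of them were higher than the STK window. The gene itself had 44.3% H3K27me3. KNAT1, a Polycomb-regulated homeobox gene of the meristem at 5.23 Mb, had 23.6 and 22.8 against 33.5 and 31.9 for its 43 like windows, of which 29 were higher. Of the flowering regulators AGL19 and AGL24, AGL19 had 68.5 and 62.1 against 62.1 and 59.0, and AGL24 had 44.3 and 61.4 against 52.6 and 53.8. STK and KNAT1, both rich in H3K27me3, thus fell on opposite sides of the mean for their distance, both inside its range. Their windows also differed in median fragment length, with 1269 bp for STK and 545 bp for KNAT1, and these values were not adjusted for length.

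AG and FWA could be read in both directions. The 25 fragments nearest FWA had 54.1 and 55.5 RPM per fragment in the AG libraries, where fragments at like distance had 49.3 and 47.8. The 25 fragments nearest AG had 43.3 and 40.1 in the FWA libraries, where fragments at like distance had 52.2 and 51.9. One direction was above its surroundings and the other below. The profiles of both viewpoints along the chromosome crossed between them and met again on the short arm.

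**Figure D3:**
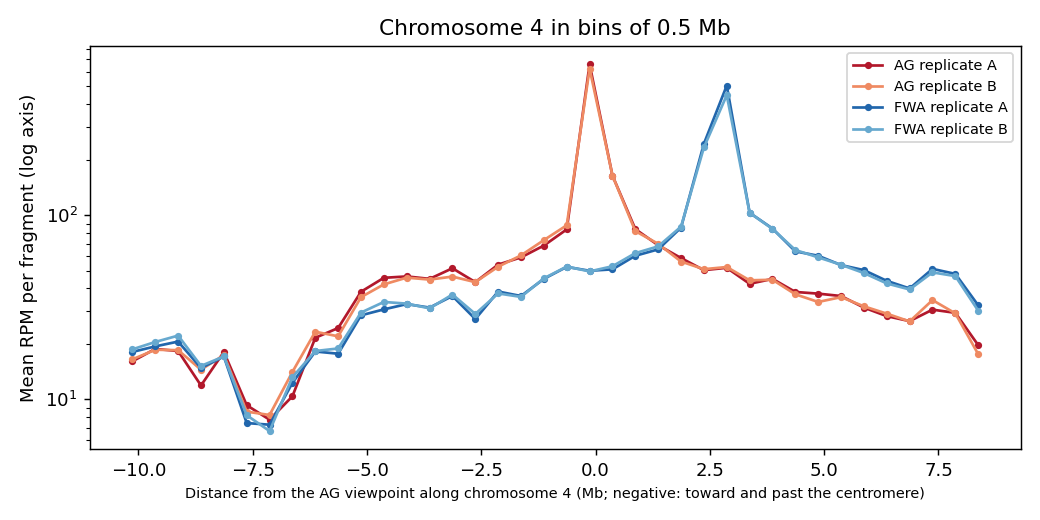
Mean RPM per fragment in bins of 0.5 Mb (y axis, log) along chromosome 4 by distance from the AG viewpoint (x axis, Mb), for AG and FWA with replicates A and B as lines. AG peaks at 659 and 624 in the bin that holds its viewpoint, FWA at 505 and 448 in its own, and the 4 lines lie between 16.1 and 18.7 in the outermost bin of the short arm.

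The right arm held 58.1% and 56.8% of the kept AG reads, the short arm of chromosome 4 3.43% and 3.55%, and the other chromosomes 38.5% and 39.6%. Per fragment, the right arm had 73.7 and 72.1 RPM and the short arm 12.8 and 13.2, a log2 ratio of 2.53 and 2.45. This ranked 4th from the low end among the 13 viewpoints (FWA 2.42 and 2.33, range of the other 12 from 2.22 to 3.72, replicate SD 0.18, one-sided exact permutation p = 0.308). Without the 2 Mb on either side of the viewpoint the mean ratio was 1.56 instead of 2.49, and the rank 7th. The short arm exceeded the other chromosomes by 0.85 and 0.86 on the log2 scale (FWA 0.79 and 0.79), 7th of 13 from the high end (p = 0.538, exact permutation). Without the right arm of chromosome 2 the mean was 0.92 instead of 0.86. Among the 5 viewpoints prepared like AG the first ratio ranged from 2.22 to 2.73 and the second from -0.08 to 0.90.

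The short arm carries a heterochromatic knob and the pericentromere. AG contacts were compared by heterochromatin mark, and the knob and the pericentromere were not compared with each other. Windows with under 10% coverage by H3K9me2, a mark of silent heterochromatin, had 17.7 and 18.5 RPM per fragment (46 windows), and those with 10% or more had 12.7 and 13.2 (38 windows). Another 23 windows shorter than 10 kb, made of very short fragments between chr4:2922895 and 3257539, had 2.91 and 2.43. FWA gave 18.6 and 19.5, 12.7 and 13.2, and 2.62 and 2.22 in the same windows. The viewpoint loci on this arm had 22.3 and 16.2 (SWN, a Polycomb methyltransferase gene), 8.83 and 13.5 (hk4s, in the knob) and 12.7 and 12.8 (YAO) in the AG libraries, within the range of the windows under 10% for all 3. The hk4s window itself, with 12.8% H3K9me2, belonged to the set with 10% or more. None of the 107 short-arm windows differed between AG and FWA at an adjusted p below 0.05 in edgeR's quasi-likelihood test, and 2 did at an unadjusted p below 0.05.

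On the other chromosomes AG had 5.95 RPM per fragment on the right arm of chromosome 1, the lowest, to 9.16 on the right arm of chromosome 3, the highest (means of both replicates). The right arm of chromosome 2 had 8.71 and 9.25, above the 7.46 to 7.87 of PHE1, FWA and FLC, and stands under the limit given above for SHP2. On both arms of chromosome 1 (6.32 and 6.70, 5.84 and 6.06) and on the right arm of chromosome 5 (6.06 and 6.06) AG lay below all comparison viewpoints on other chromosomes, whose lowest means were 7.76, 6.28 and 6.76 (PHE1, FIS2, CKI1, FWA and FLC, as far as they lie elsewhere).

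Contacts rose toward chromosome ends, less steeply for AG than for FWA. From the innermost to the outermost 10% of the arms, AG went from 5.80 and 5.50 to 8.90 and 9.37 RPM per fragment and FWA from 5.08 and 5.49 to 11.5 and 11.8. Without the right arm of chromosome 2, AG reached 8.29 and 8.75 and FWA 11.5 and 11.9. The outermost values did not overlap between both viewpoints, whereas in the innermost 10% replicate B of AG differed from replicate B of FWA by less than from its own replicate A. With each arm cut into 3 equal parts, the log2 ratio of the distal to the proximal part was 0.45 and 0.53 for AG and 0.82 and 0.77 for FWA (replicate SD 0.15). AG was 5th from the low end of 13 (range of the others from -0.14 to 1.60, p = 0.385, exact permutation), and its mean was 0.38 instead of 0.49 without the right arm of chromosome 2. The 5 viewpoints prepared like AG ranged from -0.08 to 1.60.

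**Figure D4:**
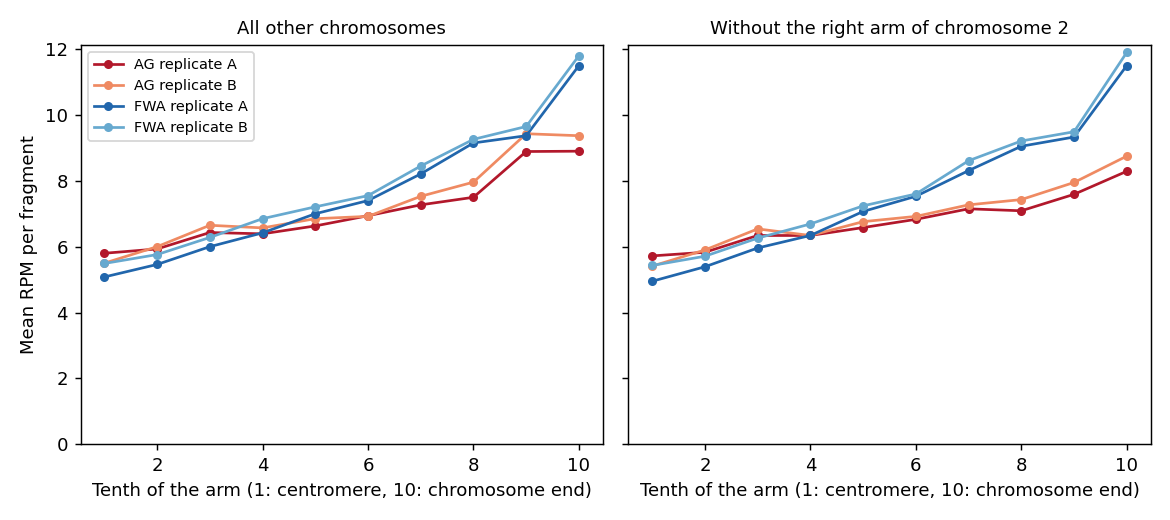
Mean RPM per fragment on chromosomes 1, 2, 3 and 5 (y axis) by relative position on the chromosome arm in 10 equal steps (x axis), for AG and FWA replicates A and B, with all arms (left) and without the right arm of chromosome 2 (right). AG rises to 8.90 and 9.37 in the outermost step (8.29 and 8.75 in the right panel) and FWA to 11.5 and 11.8 (11.5 and 11.9).

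Single windows were compared by edgeR's quasi-likelihood test on summed counts. The error of that test came from the replicates within each viewpoint. A call thus sets the mean of AG against the means of the compared viewpoints, and not against the spread between viewpoints. Against those of PHE1, FIS2, CKI1, FWA and FLC that lie on another chromosome, 93 of 2165 windows of 25 fragments differed at an adjusted p below 0.05 (4.30%), 28 higher (1.29%) and 65 lower (3.0%) with AG. Of the 28 higher windows 17 lay on the right arm of chromosome 2 (334 tested), all within 2.86 Mb of SHP2. Of the other 11, 9 lay in the proximal part of their arm, which held 714 of all 2165 windows. Of the 65 lower windows 54 lay in the distal part, which held 730. On chromosome 1, whose arms held 318 and 338 tested windows, lay 44. The comparison there leaves out PHE1, with a distal to proximal ratio of -0.08. FIS2, CKI1, FWA and FLC, which remain, had 0.79 to 1.60 against 0.49 for AG. The bearing of this on the count was not tested. Without the right arm of chromosome 2, 72 of 1831 windows were called, 10 higher and 62 lower. The direction rested on the scaling. The median of all windows was -0.11 on the log2 scale here and 0.18 with TMM factors, which called 104 higher and 13 lower. DESeq2 called 159 higher and 40 lower, and library sizes from other chromosomes alone called 18 and 17. Leaving out 1 of the 12 libraries gave 9 to 147 calls, with 9 without AG replicate A, 27 without B, 13 without either FWA replicate, 20 and 14 without FIS2 A or B, 27 without either FLC replicate, 147 without PHE1 A and 146 without CKI1 A.

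The 4 windows with the largest rise surrounded SHP2. The one that spans the gene (chr2:17773882-17856748, without the stretch left out) had 63.6 and 59.7 RPM per fragment with AG and 6.85 to 13.7 in the 6 comparison libraries (log2 difference 2.62, SE 0.19, adjusted p = 6.24e-08). The next 3, which contain PIF4, a light and temperature signalling gene, MAX2, a strigolactone signalling gene, and IBH1, had log2 differences of 2.25, 1.82 and 1.72. The 5th, on the left arm of chromosome 5 near the centromere (chr5:10485910-10531475, with 8 genes including FRS10), had 8.89 and 14.0 against 2.68 to 7.72 (1.46, SE 0.26, adjusted p = 0.00678). In all 5 windows both AG replicates lay above all comparison libraries.

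Of the 5 windows with the largest fall, 3 lay on the left arm of chromosome 1. The lowest (chr1:5246929-5299572, with SHN1, a cuticle regulator) had 3.23 and 3.0 with AG against 6.70 to 14.0 (log2 difference -1.59, SE 0.29, adjusted p = 0.00722). The second (chr3:9562740-9597453), which holds 9 CYP71B cytochrome P450 genes and is rich in H3K27me3, had 2.36 and 2.59 against 3.34 to 15 (-1.56, adjusted p = 0.0465). The CYP71B genes are near copies, so reads there could be shared between them. The other 2 on chromosome 1 (chr1:3372779-3405142 and chr1:2211222-2252188) had log2 differences of -1.50 and -1.39. The outermost window of the left arm of chromosome 5 had 7.41 and 4.90 against 4.98 to 43.0, where the groups overlap (-1.50, adjusted p = 0.0108).

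Against FWA alone, 4 of 2272 windows outside the right arm differed (0.176%), all higher with AG, and these were the 4 windows around SHP2. At an unadjusted p below 0.05 there were 252. Without the right arm of chromosome 2 none of 1938 differed with edgeR (218 at an unadjusted p below 0.05). Windows of 100 fragments, with more reads each, gave 5 higher, all on the right arm of chromosome 2, and 35 lower of 564 (7.09% in all). For 25 fragments the count was 8 without AG replicate B, 1 without FWA replicate A and 2 without B. Of the 35 lower windows 30 lay in the distal part of an arm and 0 in the proximal part, and their log2 differences were -0.80 to -0.48. They lay on both arms of chromosomes 1, 3 and 5, with 12 on the left arm of chromosome 1. Windows of 100 fragments were fitted only with kept reads as library size. For windows of 25 fragments the median log2 difference from FWA was -0.09 so scaled, 0.14 with TMM factors and 0.07 with DESeq2.

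Calls against the 5 viewpoints for relatives of AG and Polycomb targets stand beside the 4.30% over all windows. Lists of 20 MADS-box and 16 Polycomb windows are too short for a low count to be told from that share. SHP1 had 10.2 and 14.6 RPM per fragment with AG against 8.59 to 25 in 10 comparison libraries (log2 difference -0.24, adjusted p = 0.631), so that the groups overlapped. SHP2 was the only close relative called, with the limit stated above. Of 24 other MADS-box genes tested, which lay in 20 windows, 0 were higher and 1 was lower. That one was AGL42, a relative of the flowering activator SOC1. It had 7.21 and 7.97 against 7.16 to 27.4, so that the groups overlapped here too (log2 difference -0.90, adjusted p = 0.0430 in edgeR's test). The highest of this list was AGL15, an embryo regulator, with 14.4 and 11.2, and the lowest PHE1, an imprinted endosperm gene, with 5.26 and 5.18. Their median log2 difference was -0.24, against -0.11 over all windows.

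Of 16 Polycomb targets tested, in 16 windows, 0 were called, and their median log2 difference was -0.05. The highest was YAB1, a leaf polarity gene, with 11.6 and 10.6 in the window nearest to it, above the 4.32 to 9.23 of the comparison libraries (0.64, adjusted p = 0.0996). It also lies on the right arm of chromosome 2. The lowest was FT, the florigen gene, with 3.37 and 3.54. Among 8 viewpoint loci on other chromosomes 1 was called, the window nearest FIS2, with 14.2 and 15.7 against 5.73 to 13.6 (0.64, adjusted p = 0.0430), on the right arm of chromosome 2.

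For the mark itself, fragments on other chromosomes at 2 Mb or more from their centromere were split by H3K27me3. The 25% of fragments with the most (14.6% or more, the high set) had more AG reads than the 25% with the least (1.05% or less, the low set), by 0.72 and 0.74 on the log2 scale. The same held for all 13 viewpoints, from 0.30 to 0.84 for the other 12, with FWA highest at 0.84, so AG was 4th (replicate SD 0.06, p = 0.308, exact permutation). With reads at all fragment ends AG was 10th, at the same 0.73 (p = 0.769, exact permutation). Among the 5 viewpoints prepared like AG the range was 0.45 to 0.84, and without the right arm of chromosome 2 the AG mean was 0.72. Both sets differed in fragment length, with medians of 1301 and 352 bp, and within 4 classes of length the AG ratio was 0.13. In genomic DNA reads the same fragments differed by 0.10. Over windows of 25 fragments (means of 48.2 and 44.4 kb), the high set had 7.09 and 7.33 RPM per fragment with AG and the low set 7.12 and 7.27. The windows thus showed differences of -0.01 and 0.01 on the log2 scale per fragment for AG, and of -0.14 and -0.11 for FWA. Per kb they were -0.14 and -0.13 for AG and -0.26 and -0.24 for FWA. Without the right arm of chromosome 2 the AG differences per fragment were -0.03 and -0.01.

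On its own arm, within intervals of distance, AG gave log2 ratios of 1.18 and 1.14 between the high and low H3K27me3 sets, 4th of 13 (FWA 1.36 and 1.36, others from 0.76 to 1.43, replicate SD 0.16, p = 0.308, exact permutation). Among fragments of 500 bp or more the mean was 0.33 in place of 1.16, and the rank 8th. With reads at all fragment ends the rank was 7th, and the 5 viewpoints prepared like AG ranged from 0.93 to 1.43. Windows beyond 1 Mb gave 45.7 and 44.1 RPM per fragment in the high set and 39.0 and 40.2 in the low set (0.23 and 0.13). The FWA libraries, beyond 1 Mb of FWA, gave 43.5 and 43.9 against 50.2 and 49.8 (-0.21 and -0.18). The windows of the high set lay nearer to AG than those of the low set, at medians of 3.33 and 4.81 Mb, and farther from FWA, at 3.98 and 3.40 Mb, so that mark and distance cannot be told apart in these window values.

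The other marks and annotations placed AG inside the range of the other 12 viewpoints on other chromosomes. Ratios between high and low sets, formed in the same way, were 0.55 and 0.56 for H3K9Ac, 0.35 and 0.34 for H3K4me3, both found at active promoters, 0.10 and 0.05 for H3K36me3, which marks transcribed genes, and 0.33 and 0.25 for transcription. For each of these 4 FWA was higher, at 0.76, 0.51, 0.22 and 0.43. On its own arm AG was above all other viewpoints for H3K27me1, a mark of silent chromatin, at 0.99 and 0.94 against 0.26 to 0.92. The next was FWA, on the same arm, at 0.92. That gap was below the replicate SD of 0.14, and the low set was made of fragments at 0. On other chromosomes the H3K27me1 sets had median fragment lengths of 1210 and 551 bp. Numbers of coding sequences per fragment gave 1.04 and 0.97 on other chromosomes, 7th of 13, with median lengths of 2729 and 722 bp in the highest and lowest group. H3K9me2 and transposon annotations were 0 on over 3 in 4 fragments there, so that no sets could be formed.

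**Figure D5:**
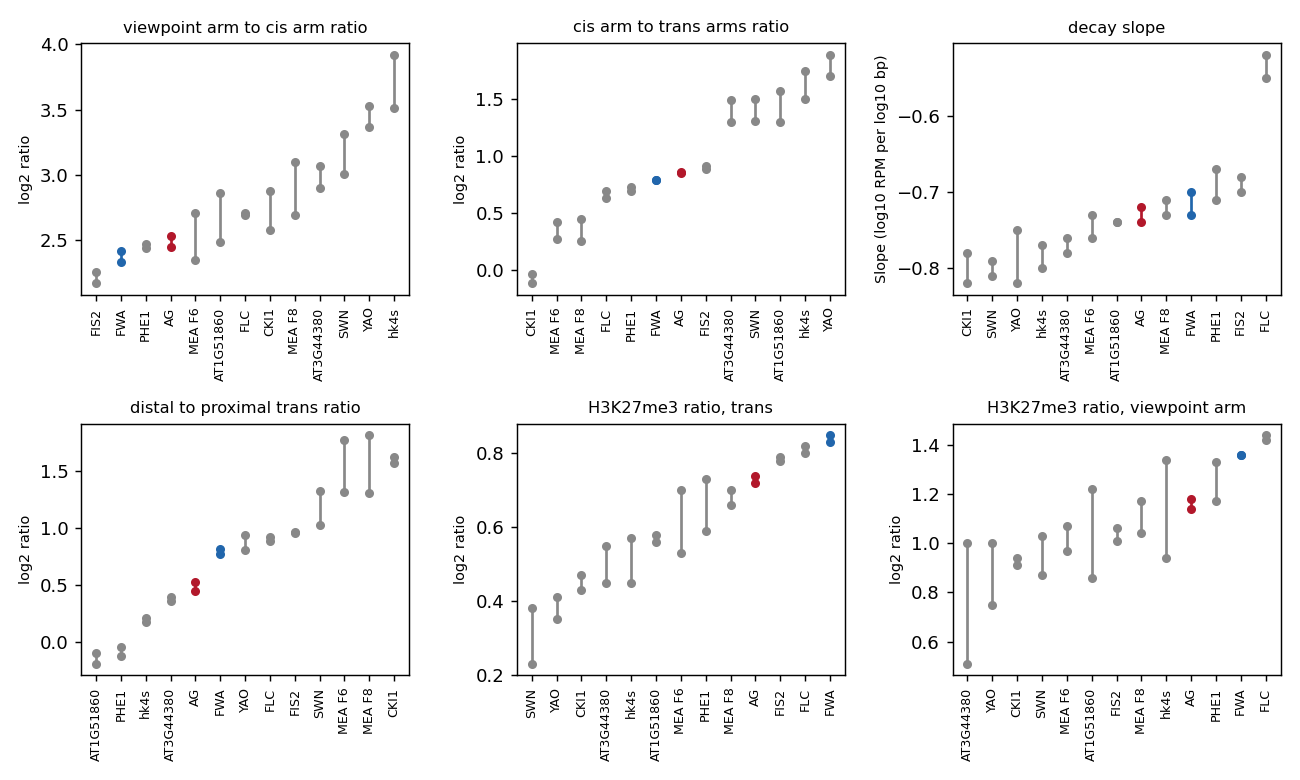
The 6 values (y axes, log2 ratios, or slope for the decay) for each of the 13 viewpoints, ordered from low to high, with replicates A and B as joined points, AG in red and FWA in blue. AG lies inside the range of the others in every panel, and its replicates differ by 0.08 or less.

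Between both AG replicates, log2 values of the 2165 windows on other chromosomes had a Pearson correlation of 0.554, and AG with FWA 0.593 to 0.636, as a description over windows, with libraries that share fragments and base composition. The FWA replicates, with 2758048 and 2953791 kept reads, gave 0.901. Spearman correlations were 0.430 between the AG replicates and 0.505 to 0.549 between AG and FWA. At this depth each AG replicate thus correlated more with either FWA library, which had more reads, than with the other AG replicate on other chromosomes.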

How the data were processed

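Libraries were taken from aerial tissue of Col-0 seedlings. Per the labels and methods, the authors used Bowtie 0.12.7 for exact alignment to TAIR10, divided multiply matching reads among their positions, and deposited expected counts per HindIII fragment end. They also deposited the signal of histone marks as percent coverage per fragment and other annotation scores per fragment (numbers of features in steps of 0.5). An in silico digest of the RefSeq TAIR10.1 sequence gave the same 66846 fragments, and gene names came from RefSeq.

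Reads at HindIII ends were scaled to RPM over kept fragments (1 kb or more from the viewpoint, 100 kb or more from the centromere, without the SHP2 stretch). Windows were 25 kept fragments of 1 arm. Rounded expected counts of 12 libraries (AG, PHE1, FIS2, CKI1, FWA, FLC) were tested with edgeR 4.0.16 (glmQLFit, glmQLFTest) in R 4.3.3, with kept reads as library size, filterByExpr and Benjamini-Hochberg adjustment, and with DESeq2 1.42.0 as an alternative. The fits were tested on simulated data. Other steps used Python 3.11.15, NumPy 2.4.6 and pandas 2.3.3. Ratios and the slope were ranked over 13 viewpoints. The error is the pooled SD between replicates, which are biological duplicates by the study's methods.

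Named genes were those of lists of MADS-box genes, Polycomb targets and viewpoint loci, and the 5 windows with the largest change in each direction. Members and lists were chosen with earlier results of these data known. By the study's methods each replicate of a batch had its own sequencing lane, so libraries of AG and the comparison viewpoints share a lane by replicate letter. The main fit took no account of the letter. Over windows of chromosome 3, differences of A and B had correlations of -0.0544 to 0.0691 over 15 pairs of viewpoints. Intervals for counts are not given, since PCR reads without molecular identifiers are not independent.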

Additional observations from a re-analysis of the deposited data

Results flagged for a closer look

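Reads at SHP2, in fragments that entered no comparison, made up 8.5% of the otherwise kept reads in AG replicate A and 9.98% in replicate B, against at most 0.210% in the 24 libraries of other viewpoints. These reads lie outside the fragments compared and stand above the level in the other libraries. With 2 replicates per viewpoint outlying libraries were not looked for.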

How the results depend on the processing

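The 5 ratios and the slope kept their sign under all alternatives but 1: summing reads per distance interval, whose widths grow with distance, turned the decay slope from -0.73 to 0.15. Leaving out fragments with no DpnII site within 1000 bp of an end gave 2.27 for the viewpoint arm to short arm ratio, 1.14 for short arm to other chromosomes, and 0.39 and 0.62 for the H3K27me3 ratios on other chromosomes and on the viewpoint arm. With the SHP2 stretch kept, short arm to other chromosomes was 0.52, distal to proximal part 1.21 and H3K27me3 on other chromosomes 1.77, with 192 windows called against 5 viewpoints and 8 against FWA. Without 2 Mb around the viewpoint its arm ratio was 1.56. The slope was -0.75 with capped fragments and -0.69 from 10 kb to 5 Mb. The H3K27me3 ratios were 0.13 within classes of fragment length and 0.33 with fragments of 500 bp or more. Window calls numbered 35 with library sizes from other chromosomes and 199 with DESeq2, and against FWA 12 with DESeq2, 40 with windows of 100 fragments and 0 without the right arm of chromosome 2 (chosen after seeing the data). With a replicate block, a term for the replicate letter, the counts were 77 and 4. The cause of these changes was not tested.

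Leaving out 1 replicate gave 2.45 to 2.53 for viewpoint arm to short arm, 0.85 to 0.86 for short arm to other chromosomes, -0.74 to -0.72 for the slope, 0.45 to 0.53 for distal to proximal part, 0.72 to 0.74 and 1.14 to 1.18 for H3K27me3, and 9 to 147 and 1 to 8 window calls. With 593634 and 587424 kept reads and 2 libraries, single windows on other chromosomes are weakly measured.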
